A study of Mus musculus with 28 samples.

Results

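Reprogramming cultures whose MEFs had received the p38 inhibitor SB203580 before induction (pre-p38i) were compared with cultures without the inhibitor (control), both harvested on day 7 of induction. The 4 libraries were chosen by their labels alone, out of 28 libraries in the series, with 2 libraries in each group. All were mouse embryonic fibroblasts (MEFs) of wild-type genotype induced by Oct4, Klf4 and Sox2 (OKS) in iCD1, a chemically defined induction medium. By the study's methods the MEFs came from mid-gestation embryos sired by OG2 males, which carry an Oct4-GFP reporter, the factors came from pMXs retroviruses, and the control received DMSO. The day 5 libraries of the same groups and the MEF libraries with and without p38i, also 2 per group, are used here for comparison, and so are 2 libraries of cultures that received the inhibitor during induction (p38i) up to day 7. No source used here says whether the libraries of a group came from separate cultures or embryos, so p-values measure only the spread between these libraries, which may be technical.

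In OKS reprogramming, fibroblasts first lose mesenchymal genes and gain epithelial ones, a mesenchymal-to-epithelial transition (MET), and only later switch on the endogenous pluripotency network. TGF-β signalling and the matrix genes it drives oppose MET, whereas rapid cell division favours reprogramming. The p38 kinases are stress-activated MAP kinases that act on AP-1 factors, cytokine mRNAs and cell cycle inhibitors, and SB203580 blocks the α and β isoforms.

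Each library held whole numbers that summed to between 991326 and 991395, so that the values resemble TPM, and the read depth is unknown. Between 14033 and 14101 genes had a value of at least 1. Mitochondrial genes took 3.62% and 4.02% in the control libraries and 3.21% and 3.04% in the pre-p38i libraries. Of the fibroblast markers, Col1a2 (collagen I chain) had values of 633 and 655 in control and of 377 and 352 in pre-p38i. Prrx1, a mesenchymal homeobox factor, had 51 and 54 against 43 and 42, and Thy1, a fibroblast surface marker, had 17 and 21 against 15 and 13. Fibroblast RNA was thus still present in both groups, and in these bulk samples fewer cells of a type and less RNA per cell cannot be told apart.

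The largest rises of named genes in pre-p38i were in Ndufa4l2 and Slc16a3, which are known to respond to low oxygen, and the largest falls were in the myeloid lysozyme Lyz2, the BMP antagonist Grem1 and complement genes. Of 13230 genes tested, 3952 (29.9%) were called at an adjusted p under 0.05, 2034 higher (15.4%) and 1918 lower (14.5%) in pre-p38i. The numbers were near equal, but the falls were larger. At a log2 size of 1 or more, 145 genes were higher (1.1%) and 490 lower (3.7%), and over 2 in size, 6 were higher and 48 lower. Among the rises, 1263 were under 0.5. The median log2 fold change over all genes was 0.05, and under median-of-ratios scaling it was -0.02, with 1296 genes higher and 2426 lower (34.8% higher, against 51.5%). Fold changes are differences of log2(value + 1), tested with limma and adjusted over all genes tested. The values of the 2 groups did not overlap in 58.7% of genes, and an exact permutation test of 2 against 2 libraries cannot go below p = 0.333. A lack of overlap was also a condition for naming the largest rises and falls. Statements below that groups lay apart therefore describe values and lend no support. In a fit of the 4 libraries alone, 2285 genes were called.

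**Figure D1:**
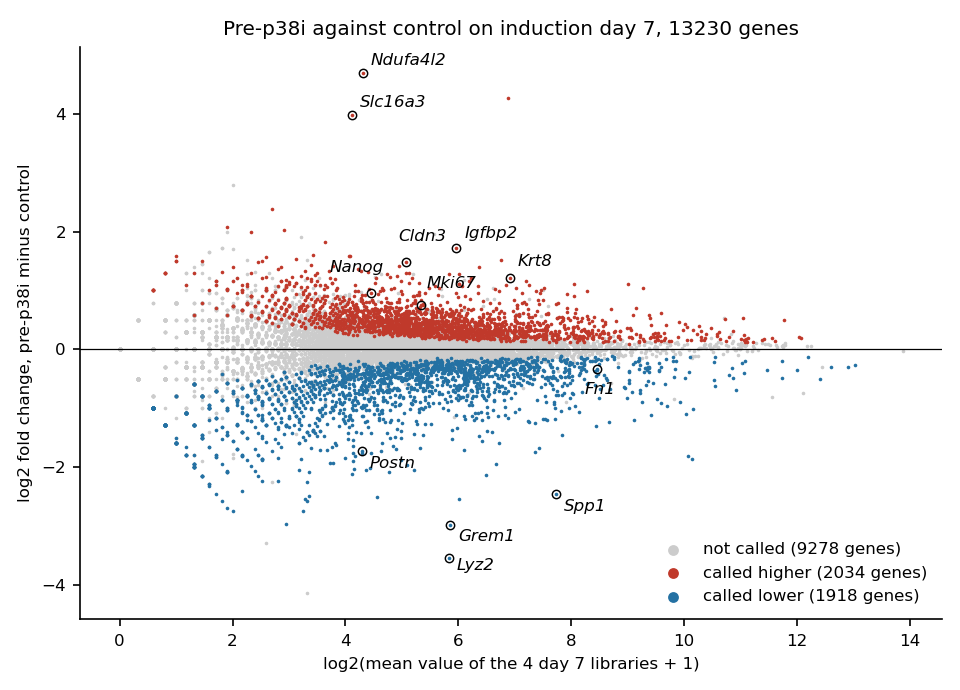
Log2 fold change of pre-p38i minus control on day 7 (vertical axis) against the log2 of the mean value of the 4 libraries plus 1 (horizontal axis), 1 point per gene. Of 13230 genes, 2034 were called higher and 1918 lower, and the points far below 0 outnumber those far above it.

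Glycolysis and hypoxia genes are driven in many cells by HIF-1, which binds a core of ACGTG. The promoters of Slc16a3, the lactate exporter MCT4, and Bnip3, a mitophagy receptor, are shown because both genes were among those that rose after day 5. They are the 300 bases around the start site in RefSeq (build GRCm38.p6), Slc16a3 at chr11:120948817-120949116, plus strand, and Bnip3 at chr7:138909457-138909756, minus strand. Capitals mark ACGTG on either strand.
Slc16a3: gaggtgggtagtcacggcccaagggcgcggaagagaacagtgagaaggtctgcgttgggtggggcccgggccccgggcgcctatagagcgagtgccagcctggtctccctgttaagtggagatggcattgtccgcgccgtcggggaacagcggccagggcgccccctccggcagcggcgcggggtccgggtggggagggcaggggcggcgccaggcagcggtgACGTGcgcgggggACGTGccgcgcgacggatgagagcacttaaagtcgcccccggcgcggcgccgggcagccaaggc
Bnip3: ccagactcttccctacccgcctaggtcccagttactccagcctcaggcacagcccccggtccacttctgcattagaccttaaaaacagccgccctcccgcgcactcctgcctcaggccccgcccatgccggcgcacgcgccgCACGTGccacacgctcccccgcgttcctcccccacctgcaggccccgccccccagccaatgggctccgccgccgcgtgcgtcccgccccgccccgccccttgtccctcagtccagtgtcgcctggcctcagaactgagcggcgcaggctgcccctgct
Slc16a3 held 2 matches that lie outside the palindrome CACGTG, an E-box, and both matches of Bnip3 were the 2 strands of 1 CACGTG. The core was in 31 of the 59 promoters (52.5%) of the 37 list genes matched, and in 19.6% of all 32851 promoters and 25.1% of those of tested genes. Outside CACGTG it was in 47.5% of the list's promoters and 13.6% of all. A match is a description and no evidence of binding.

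Ndufa4l2 (chr10:127514967-127517154), a mitochondrial protein known as a HIF-1 target, had values of 1 and 0 in the control libraries and 47 and 27 in pre-p38i. Slc16a3 (chr11:120948480-120960868) had 1 and 1 in control and 39 and 24 in pre-p38i. Both genes were at or near 0 in the day 7 control libraries and well above it in both pre-p38i libraries. The log2 fold changes were 4.70 (SE 0.46, adjusted p = 2.06e-07) and 3.98 (SE 0.35, adjusted p = 4.83e-08). With control values this low the size depends on the setting, and it ranged from 4.20 to 6.75 for Ndufa4l2 and from 3.64 to 4.80 for Slc16a3. In cultures with p38i during induction the day 7 values were 0 and 1 for Ndufa4l2 and 0 and 2 for Slc16a3. In MEFs before induction Slc16a3 went the other way, with 29 and 34 in control and 8 and 9 with p38i (log2 -1.77, adjusted p = 0.00122), and Ndufa4l2 was listed at 0 in all 4 MEF libraries. The p38i cultures have the same control libraries, so their values are only set beside the others here. The clone gene Gm37167, which the rule for named genes leaves out, had 85 and 0 in control and 264 and 120 in pre-p38i (log2 4.27, adjusted p = 0.0369).

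Of the 37 tested genes of glycolysis and hypoxia, 15 were higher (40.5%) and 4 lower (10.8%), beside 15.4% and 14.5% of all genes tested. The median was 0.16 beside 0.05 over all genes. Ldha, which makes lactate from pyruvate, had 536 and 526 in control and 828 and 765 in pre-p38i (log2 0.58, adjusted p = 1.61e-09). Tpi1, triose phosphate isomerase, had 433 and 437 against 645 and 666 (log2 0.59). Pkm, pyruvate kinase, had 1659 and 1651 against 2107 and 2024 (log2 0.32). None of these groups overlapped. Bnip3 had 18 and 19 against 53 and 41 (log2 1.29, adjusted p = 4.77e-05), and near-identical copies make its value uncertain. Ddit4, an inhibitor of mTORC1 signalling, had 135 and 124 against 237 and 228 (log2 0.84). Aldoc, a brain-type aldolase, had 18 and 14 against 48 and 40 (log2 1.41, adjusted p = 0.00126, and 0.112 with a pseudocount of 0.1). The hypoxia genes did not all move one way. Adm, the vasodilator peptide adrenomedullin, fell from 8 and 7 to 2 and 3 (log2 -1.29), and Hk2, the first enzyme of glycolysis, from 52 and 52 to 36 and 30 (log2 -0.65). Ero1l, an oxidase of the endoplasmic reticulum, fell by 0.61 on the log2 scale. In the fit of the 4 libraries alone 11 were higher and 1 lower, without Adm (0.0515).

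The other large rises were in genes of several kinds. Igfbp2, a binding protein of insulin-like growth factors, had 26 and 30 in control and 97 and 92 in pre-p38i (log2 1.72, SE 0.16, adjusted p = 8.13e-08). Adgrd1, an adhesion G protein-coupled receptor, had 4 and 5 against 19 and 18 (log2 1.83, adjusted p = 4.47e-07). Vipr2, a receptor of vasoactive intestinal peptide, had 6 and 3 against 15 and 15, and Hpgd, which degrades prostaglandins, had 7 and 8 against 27 and 22. The rule by which these genes were picked required that the groups did not overlap. Insm1, a neuroendocrine zinc finger factor, had 3 and 4 against 13 and 11. Entpd2, an enzyme that splits extracellular ATP, had 9 and 6 against 24 and 24, but 28.8% of its exon bases are shared with Npdc1 on the same strand, so its value is uncertain. A pseudocount of 0.1 ended the calls of Vipr2 (adjusted p = 0.0726), Hpgd (0.208), Insm1 (0.289) and Entpd2 (0.145), and the fit of the 4 libraries alone that of Vipr2 (0.0845).

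**Figure D2:**
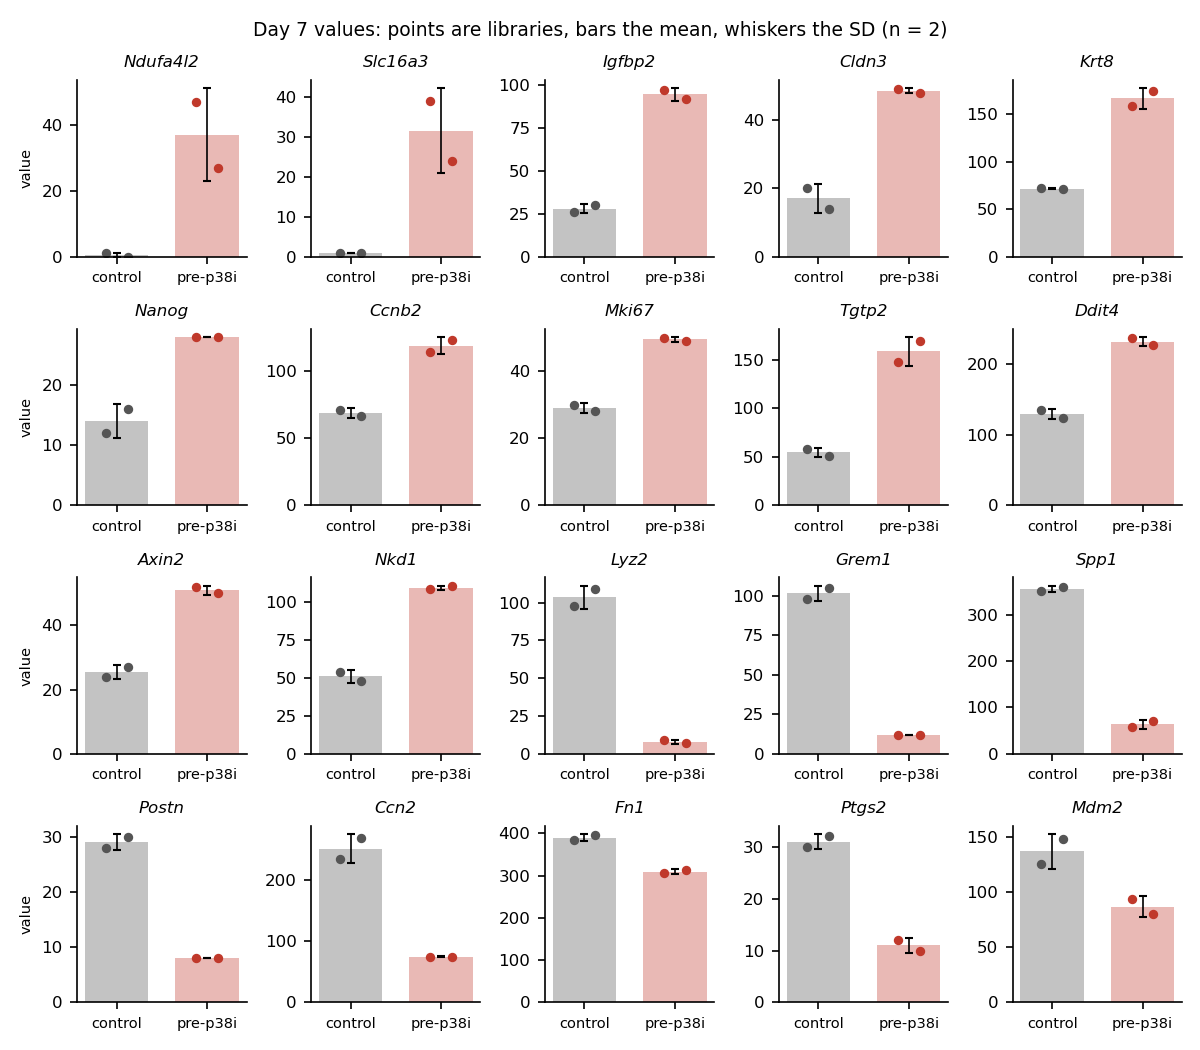
Day 7 values of 20 genes (vertical axes, each starting at 0) in control (grey) and pre-p38i (red), with points for libraries, bars for the mean and whiskers for the SD (n = 2). In each panel the 2 pre-p38i libraries lie on one side of the 2 control libraries, as for Nanog with 28 and 28 against 12 and 16.

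Of the 26 pluripotency genes tested, 8 were higher (30.8%) and 1 lower (3.85%) in pre-p38i, beside 15.4% and 14.5% of all genes tested. The median was 0.43. Klf2, a naive pluripotency factor, had 12 and 15 in control and 31 and 30 in pre-p38i (log2 1.13, SE 0.16, adjusted p = 2.25e-05). Nanog (chr6:122707489-122714633), a core factor of the endogenous network, had 12 and 16 against 28 and 28 (log2 0.96, SE 0.27, adjusted p = 0.00998). In both genes each pre-p38i value was above each control value. Fbxo15, a target of Oct4 and Sox2, had 7 and 8 against 17 and 18, Alpl, alkaline phosphatase, had 171 and 162 against 319 and 319, and Dppa5a, an RNA-binding protein of pluripotent cells with near-identical copies, had 22 and 30 against 50 and 41. Tfcp2l1, a naive state factor, had 35 and 38 against 57 and 53, Jarid2, a partner of the PRC2 complex, had 35 and 39 against 62 and 58, and Gdf3, a ligand of the TGF-β family, had 55 and 52 against 73 and 77. Zfp42 (31 and 29 against 44 and 45, adjusted p = 0.161) and Esrrb (7 and 4 against 8 and 10, adjusted p = 0.12) were not called, and Dppa3 was too low to be tested, with 0 and 1 against 2 and 3. Upp1, uridine phosphorylase, went the other way, with 143 and 140 against 71 and 58 (log2 -1.13). In p38i cultures on day 7 Nanog had 1 and 1.

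The count of 8 depended on the setting. It was 9 with no filter, where 37 genes were tested, and 8 under quantile normalisation. In the fit of the 4 libraries alone, which called Zfp42 (adjusted p = 0.0245), it was 9. It fell to 2 with a pseudocount of 0.1, to 5 under median-of-ratios scaling, and to 2, 5, 4 and 2 without control 1, control 2, pre-p38i 1 and pre-p38i 2. The call of Nanog ended without control 1 (adjusted p = 0.109), pre-p38i 1 (0.0515) or pre-p38i 2 (0.052), with a pseudocount of 0.1 (0.414) and in the fit of the 4 libraries alone (0.0622). That of Fbxo15 ended without control 1 (0.0637) or pre-p38i 2 (0.0552) and with a pseudocount of 0.1 (0.254). Alpl was not called without control 2 (0.0664), pre-p38i 1 (0.0532) or pre-p38i 2 (0.0537), or with a pseudocount of 0.1 (0.458), and Dppa5a was not called without control 1 (0.257), pre-p38i 1 (0.207) or pre-p38i 2 (0.068), with a pseudocount of 0.1 (0.575), under median-of-ratios scaling (0.0534), with the replicate number as a block (0.0703) or in the fit of the 4 libraries alone (0.118). Klf2 was called in each setting. Tfcp2l1, Jarid2 and Gdf3 cannot all have been, since only 2 genes of the list were higher with a pseudocount of 0.1.

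The reprogramming factors themselves were not higher. Pou5f1 (Oct4) had 2214 and 2316 in control and 1918 and 1915 in pre-p38i (log2 -0.24, adjusted p = 4.39e-04). Sox2 had 842 and 825 against 783 and 807, and Klf4 had 615 and 605 against 600 and 588, neither called, with 95% intervals of the log2 difference from -0.45 to 0.31 and from -0.21 to 0.14. Retroviral and endogenous transcripts cannot be told apart in these values.

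Epithelial genes were in part higher. Of 32 tested, 8 were called higher (25%) and 2 lower (6.25%), beside 15.4% and 14.5% of all genes tested. The median was 0.38. Cdh1, E-cadherin, the junction protein that marks MET, had 159 and 151 in control and 268 and 263 in pre-p38i (log2 0.77, SE 0.10, adjusted p = 4.12e-06). Epcam, an epithelial adhesion molecule, had 182 and 183 against 332 and 358 (log2 0.91, adjusted p = 0.00164), and Krt19, a simple-epithelium keratin, had 20 and 22 against 43 and 39 (log2 0.93). The groups lay apart in all of these genes. Krt8, the first keratin of the embryo, had 72 and 71 against 159 and 174 (log2 1.21, adjusted p = 3.46e-04, and 0.165 with a pseudocount of 0.1), and its partner Krt18 had 20 and 15 against 35 and 38. The tight junction claudins Cldn3 (20 and 14 against 49 and 48), Cldn4 (38 and 27 against 66 and 68) and Cldn7 (18 and 16 against 31 and 30) rose as well. Other junction proteins were lower, namely Tjp1 (ZO-1) with 71 and 70 against 59 and 54 and Jup (plakoglobin) with 242 and 250 against 217 and 218.

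The number of higher epithelial genes was 2 with a pseudocount of 0.1, and 4, 5 and 4 without control 2, pre-p38i 1 and pre-p38i 2. Without control 2 the adjusted p was 0.108 for Cldn3, 0.225 for Cldn4 and 0.116 for Krt18. Without pre-p38i 1 it was 0.0593 for Cldn3 and 0.108 for Cldn4, and without pre-p38i 2 it was 0.0551, 0.123 and, for Krt18, 0.0704. With a pseudocount of 0.1 it was 0.405 for Cldn3, 0.44 for Cldn4 and 0.256 for Krt18. Cldn4 was also lost with no filter (0.0539) and under median-of-ratios scaling (0.0572). The fit of the 4 libraries alone did not call Krt18 (0.0606), Cldn4 (0.0745) or Tjp1 (0.0647), but called 10 genes of the list higher and 1 lower. Under quantile normalisation 11 were higher, and 9 with the replicate number as a block. Cdh1 and Krt19 were called in each setting. They were the 2 genes left with a pseudocount of 0.1, so Epcam and Cldn7 were not called there.

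Mesenchymal regulators were mostly lower, 13 of 24 tested, with 2 higher and a median of -0.36, and 7 were lower in the fit of the 4 libraries alone. Twist1, a driver of the reverse transition, had 94 and 102 in control and 65 and 58 in pre-p38i (log2 -0.66, SE 0.06, adjusted p = 1.22e-07). Zeb1, a repressor of Cdh1, had 12 and 13 against 8 and 8 (log2 -0.58). S100a4, a fibroblast calcium-binding protein, had 173 and 187 against 90 and 87 (log2 -1.02), but 51.7% of its exon bases are shared with Gm42674 on the same strand, so its value is uncertain. No value of one group reached the other. The mesenchymal cadherin Cdh11 had 33 and 34 against 19 and 16, with near-identical copies, and Cdh2, N-cadherin, 89 and 88 against 74 and 73. The receptors Pdgfra (4 and 4 against 2 and 1) and Pdgfrb (6 and 7 against 3 and 3) and the factors Prrx2 (3 and 5 against 2 and 1) and Osr1 (5 and 6 against 2 and 3) were low in both groups. Snai1, Snai2 and Zeb2 were not called. Foxd1 went against the list, with 194 and 187 against 291 and 299 (log2 0.63, adjusted p = 7.01e-05). The fit of the 4 libraries alone did not call Pdgfra (0.0972), Prrx2 (0.167) or Osr1 (0.0875), Pdgfra was not called without pre-p38i 2 (0.0579), nor Prrx2 without control 2 (0.0788) or pre-p38i 2 (0.0739).

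**Figure D3:**
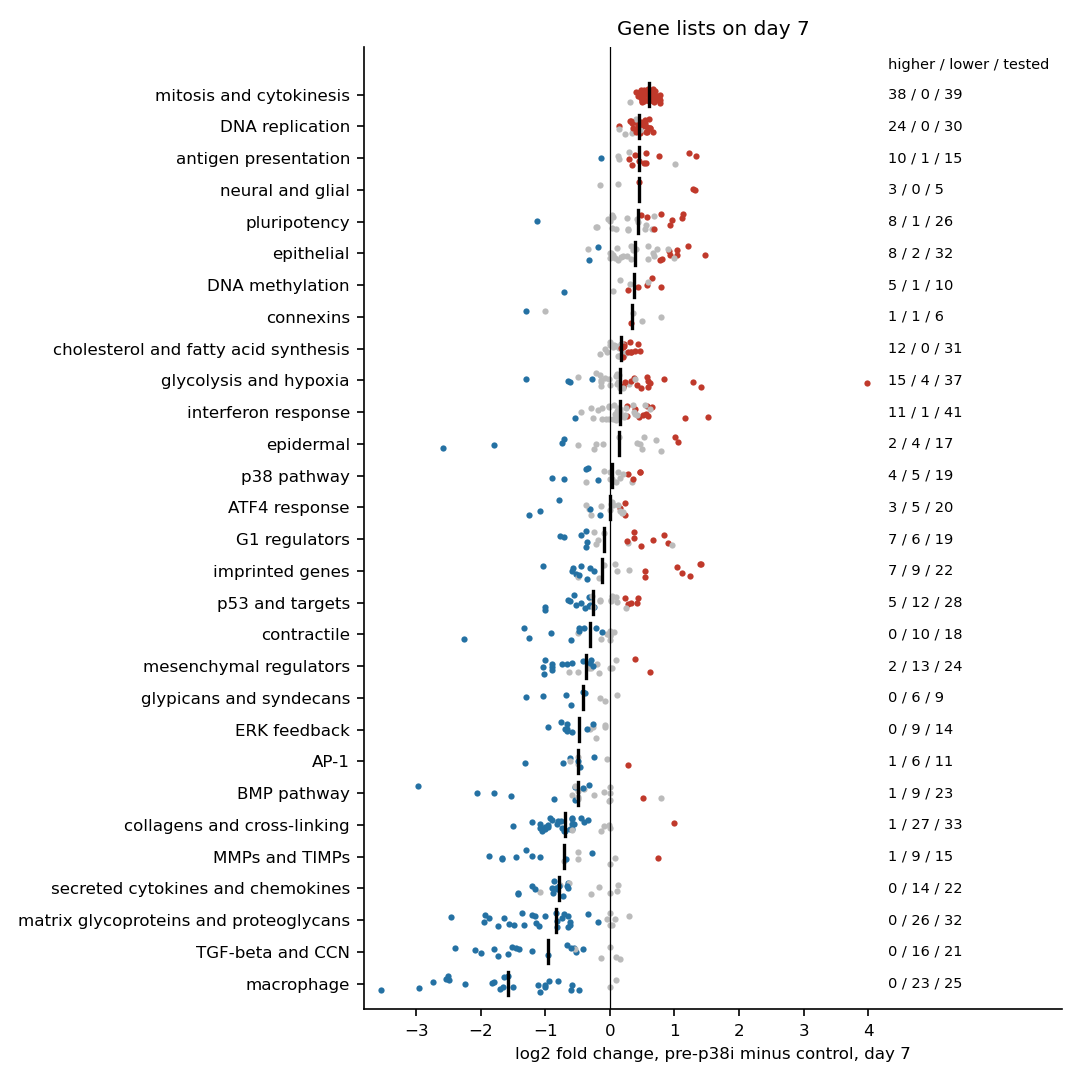
Log2 fold change of pre-p38i minus control on day 7 (horizontal axis) for the tested genes of 29 lists (rows), with red for called higher, blue for called lower, grey for not called and a black bar at the median. The numbers at the right count genes higher, lower and tested, from 38, 0 and 39 for mitosis and cytokinesis to 0, 23 and 25 for macrophage markers. Over all genes tested, 15.4% were called higher and 14.5% lower.

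Matrix genes fell almost as a body. Of 33 collagens and cross-linking enzymes tested, 27 were lower and 1 higher, and of 32 matrix glycoproteins and proteoglycans 26 were lower and none higher, with medians of -0.69 and -0.83. Lox, lysyl oxidase, which cross-links collagen and elastin, had 38 and 42 in control and 13 and 14 in pre-p38i (log2 -1.50, SE 0.06, adjusted p = 8.34e-13). Loxl2 had 41 and 42 against 19 and 16, and P4ha2, a collagen prolyl hydroxylase, had 17 and 15 against 7 and 7. Col1a1 had 290 and 319 against 150 and 142 (log2 -1.05), Col6a1 had 789 and 801 against 443 and 415 (log2 -0.89), and the fibril-associated Col12a1 had 20 and 20 against 10 and 8. Each group stood clear of the other. The exception was Col15a1, a basement membrane collagen, with 3 and 3 against 7 and 7 (adjusted p = 0.0476). No gene of the collagen list was called higher with a pseudocount of 0.1 or with no filter. The same held with the replicate number as a block and under median-of-ratios scaling. Among the glycoproteins, Spp1, osteopontin, had 351 and 361 against 57 and 71 (log2 -2.47, SE 0.08, adjusted p = 6.11e-14), and shares 18.8% of its exon bases with Gm42793 on the same strand. Thbs1, thrombospondin, which activates latent TGF-β, had 155 and 166 against 44 and 38 (log2 -1.95). Tnc (18 and 22 against 5 and 4), Aebp1 (49 and 48 against 13 and 12) and Postn, periostin (28 and 30 against 8 and 8, log2 -1.74), fell as well. Fn1, fibronectin, had the smallest difference of the matrix genes named, with 383 and 395 against 305 and 313 (log2 -0.33).

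Of 15 matrix metalloproteinases and their inhibitors, 9 were lower and 1 higher. Both sides of that balance were among them. The inhibitors Timp2 (258 and 266 against 85 and 78, log2 -1.67, adjusted p = 5.93e-15) and Timp3 (330 and 339 against 123 and 121, log2 -1.45, adjusted p = 3.11e-15) fell, and so did the gelatinase Mmp2 (106 and 106 against 53 and 46, log2 -1.09). The secreted proteases Mmp10 (10 and 10 against 3 and 2), Mmp12 (9 and 7 against 2 and 1) and Mmp19 (7 and 8 against 2 and 3) fell from low values, and Mmp15 had 2 and 4 against 6 and 5. In the fit of the 4 libraries alone 4 were lower, without Mmp12 (adjusted p = 0.053) and Mmp19 (0.0515). Of 9 glypicans and syndecans, coreceptors that carry heparan sulphate, 6 were lower, among them Gpc4 (132 and 128 against 64 and 62, log2 -1.03), Sdc2 (187 and 193 against 128 and 123) and Sdc3 (11 and 13 against 6 and 3, adjusted p = 0.118 in the fit of the 4 libraries alone).

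TGF-β ligands and targets showed the lowest median of the signalling lists, -0.95, with 16 of 21 lower and none higher. Tgfb1, the main ligand, had 21 and 23 in control and 9 and 9 in pre-p38i (log2 -1.20, adjusted p = 7.48e-08). Inhba, a subunit of activin A, had 6 and 7 against 1 and 0 (log2 -2.40), and the latent TGF-β binding protein Ltbp2 had 5 and 5 against 0 and 1. These ligands and carriers were lower in each pre-p38i library. The targets Ccn2 (CTGF; 235 and 268 against 74 and 75, log2 -1.74, SE 0.07, adjusted p = 3.22e-13), Ccn1 (81 and 92 against 29 and 30, log2 -1.52), which TGF-β and YAP both induce, and the related Ccn4 (7 and 8 against 2 and 1) were lower too. Ankrd1, a YAP target, had 3 and 3 in control and was listed at 0 in both pre-p38i libraries. In p38i cultures Ccn2 had 451 and 466. The fit of the 4 libraries alone did not call Inhba (0.0652) or Ltbp2 (0.0779). Smooth muscle and contractile genes, which TGF-β induces in myofibroblasts, were lower in 10 of 18, among them Acta2, smooth muscle actin (44 and 44 against 20 and 16, log2 -1.25, adjusted p = 3.68e-08), and Cnn2 (57 and 64 against 32 and 31). Tagln had 15 and 16 against 3 and 2, and an antisense gene covers 62.4% of its exon bases.

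In the BMP pathway, which favours MET in reprogramming, ligands and antagonists fell side by side. Of 23 genes 9 were lower (39.1%) and 1 higher (4.35%), beside 14.5% and 15.4% of all genes tested. Grem1 (chr2:113746164-113758646), the antagonist gremlin, had 98 and 105 in control and 12 and 12 in pre-p38i (log2 -2.98, SE 0.05, adjusted p = 1.05e-18). The ligands Bmp2 (14 and 13 against 4 and 4, adjusted p = 2.47e-04, and 0.144 with a pseudocount of 0.1) and Bmp6 (15 and 12 against 3 and 2) and the modulator Bmper (8 and 7 against 1 and 2) also fell. The direct targets split. Id3 had 69 and 69 against 101 and 96 (log2 0.51), and Id1 had 65 and 67 against 46 and 44 (log2 -0.54).

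Macrophage markers had the lowest median of the lists plotted. Of 30 genes, 25 were tested and 23 were lower and none higher, with a median of -1.58. Summed over the list, the control libraries had 520 and 522 and the pre-p38i libraries 172 and 170, and the p38i cultures had 367 and 311. Lyz2 (chr10:117277331-117282321), a lysozyme of myeloid cells, had 98 and 109 in control and 9 and 7 in pre-p38i (log2 -3.54, SE 0.10, adjusted p = 5.93e-15), and is 95.8% identical over 1264 bases to Lyz1. The complement genes C1qa (13 and 12 against 2 and 0), C1qb (16 and 15 against 3 and 1) and C1qc (14 and 17 against 1 and 2), the scavenger receptor Marco (38 and 40 against 6 and 6) and the Fc receptor chain Fcer1g (21 and 12 against 2 and 2) fell with it. The myeloid receptor Csf1r had 1 and 1 in control and was listed at 0 in pre-p38i, the F4/80 gene Adgre1 had 8 and 9 against 1 and 1, and 4 of the 30 genes were at 0 in all 4 libraries. Without control 1 or pre-p38i 2 the number lower was 15, with a minimum mean of 5 it was 13 of the fewer genes tested, and in the fit of the 4 libraries alone it was 14, with C1qa (0.0891) and C1qb (0.06) not called. Spp1 and the cytokines below are also expressed by macrophages. The part of these markers in those results was not tested. Endothelial genes gave 0 higher and 1 lower of 4 tested, and none of the myogenic genes reached the level for testing.

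Of 22 secreted cytokines, chemokines and prostaglandin enzymes, 14 were lower and none higher, with a median of -0.78. Ptgs2, the inducible cyclooxygenase whose mRNA p38 stabilises, had 30 and 32 in control and 12 and 10 in pre-p38i (log2 -1.42, adjusted p = 1.2e-09), and Ptges, which acts after it, had 18 and 18 against 7 and 8 (log2 -1.16). The monocyte attractants Ccl2 (450 and 473 against 267 and 252) and Ccl7 (356 and 373 against 212 and 226) were lower by 0.83 and 0.73 on the log2 scale. Cxcl1, a neutrophil attractant, had 15 and 15 against 5 and 5, and its call ended without any 1 of the 4 libraries (adjusted p of 0.0626 without control 1, 0.0669 without control 2, 0.0632 without pre-p38i 1 and 0.0637 without pre-p38i 2). The number lower was 7, 8, 9 and 9 without control 1, control 2, pre-p38i 1 and pre-p38i 2, and 6 in the fit of the 4 libraries alone.

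Genes of mitosis and cytokinesis rose together, 38 of 39, with a median of 0.61. Many of them carry a cell cycle homology region with a core of TTTGAA, through which the DREAM complex represses them in resting cells. The promoters of Ccnb2 (chr9:70421505-70421804, minus strand), cyclin B2, and Mki67 (chr7:135716330-135716629, minus strand), the proliferation marker Ki-67, are shown because both genes were called in each setting. Capitals mark TTTGAA on either strand.
Ccnb2: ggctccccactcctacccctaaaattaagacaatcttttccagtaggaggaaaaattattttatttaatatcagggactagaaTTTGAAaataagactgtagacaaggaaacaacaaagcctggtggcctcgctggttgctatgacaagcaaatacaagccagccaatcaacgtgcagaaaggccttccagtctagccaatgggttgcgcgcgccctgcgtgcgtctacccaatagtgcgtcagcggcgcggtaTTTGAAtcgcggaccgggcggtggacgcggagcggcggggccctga
Mki67: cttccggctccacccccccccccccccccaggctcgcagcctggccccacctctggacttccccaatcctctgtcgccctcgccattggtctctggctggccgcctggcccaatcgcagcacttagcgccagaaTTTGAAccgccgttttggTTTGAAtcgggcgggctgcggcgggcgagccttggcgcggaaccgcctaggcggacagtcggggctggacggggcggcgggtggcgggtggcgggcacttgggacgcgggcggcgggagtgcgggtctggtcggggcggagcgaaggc
TTTGAA was in 28 of the 36 promoters (77.8%) of the 33 list genes matched, in 17.9% of all promoters and in 12.1% of those of tested genes. Each of the promoters shown held 2 matches.

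Ccnb2 had 71 and 66 in control and 114 and 123 in pre-p38i (log2 0.78, SE 0.12, adjusted p = 3.53e-05). Mki67 had 30 and 28 against 50 and 49 (log2 0.75, adjusted p = 7.5e-07). Ccnb1, cyclin B1, had 111 and 105 against 194 and 177, Top2a, the topoisomerase of mitotic chromosomes, 127 and 125 against 214 and 217, and Kif20b, a kinesin of cytokinesis, 9 and 9 against 15 and 17. Both pre-p38i libraries were above both control libraries in these 5 genes. In p38i cultures Mki67 had 17 and 18 and Ccnb2 40 and 37. Of 30 DNA replication genes, 24 were higher and none lower, with a median of 0.46, and 15 were higher in the fit of the 4 libraries alone. Cdt1, which loads the replicative helicase, had 37 and 32 against 64 and 48 (log2 0.67, adjusted p = 6.25e-04, and 0.128 in that fit), and Mcm10 had 27 and 25 against 37 and 43 (0.0617 in that fit). Gins1 had 24 and 22 against 35 and 37 and Pole, the leading-strand polymerase, 17 and 15 against 25 and 25. Mcm2, a helicase subunit, had 93 and 88 against 131 and 135 (log2 0.55, adjusted p = 2.04e-06). The call of Gins1 ended without any 1 library (0.0544 and 0.118 without control 1 and 2, and 0.0633 and 0.102 without pre-p38i 1 and 2), and that of Pole without control 2 (0.0771).

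The regulators of G1 split, with 7 of 19 higher (36.8%) and 6 lower (31.6%), beside 15.4% and 14.5% of all genes tested. The inhibitors of CDK4 and CDK6 at the Ink4 locus were lower, Cdkn2a with 272 and 295 in control and 201 and 213 in pre-p38i (log2 -0.45) and Cdkn2b with 52 and 49 against 32 and 29 (log2 -0.71). The inhibitors Cdkn2c (24 and 23 against 41 and 45, log2 0.84) and Cdkn1b (p27; 25 and 25 against 48 and 47, log2 0.90, adjusted p = 3.35e-06) were higher. Ccnd3, a D-type cyclin, had 283 and 292 against 166 and 168 (log2 -0.78), and Rbl1, the pocket protein p107, 16 and 17 against 29 and 25 (log2 0.68). Trp53, which encodes p53, had 215 and 200 against 208 and 210 and was not called (95% interval of the log2 difference -0.13 to 0.15). Of 28 p53 pathway genes, 12 were lower (42.9%) and 5 higher (17.9%), beside 14.5% and 15.4% of all genes tested. Perp, a p53 target in cell death and junctions, had 281 and 278 against 142 and 136 (SE 0.08, adjusted p = 6.21e-09), Ccng1 had 441 and 469 against 302 and 293 (log2 -0.61), and Cdkn1a (p21) had 803 and 891 against 706 and 666 (log2 -0.30). Fas, a death receptor, had 16 and 14 against 6 and 8, Mdm2, which degrades p53, 126 and 148 against 94 and 80, and Tnfrsf10b 82 and 82 against 58 and 53. In the fit of the 4 libraries alone 7 were lower and 1 higher, without Fas (0.0625) and Mdm2 (0.0838), and leaving out any 1 library left 3 higher.

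Among the kinases themselves, Mapk14 (p38α) had 40 and 42 in control and 52 and 48 in pre-p38i (log2 0.28, adjusted p = 0.00716), and Mapk11 (p38β) had 3 and 3 against 2 and 1. Mapk12 (1 and 1 against 1 and 1) and Mapk13 (21 and 18 against 18 and 21) were not called. The call of Mapk14 ended without control 1 (0.0648) or pre-p38i 1 (0.0853) and in the fit of the 4 libraries alone (0.0827). That of Mapk11 ended without control 1 (0.0814), control 2 (0.0866) or pre-p38i 2 (0.265) and in the fit of the 4 libraries alone (0.167). Over the p38 pathway 4 of 19 were higher (21.1%) and 5 lower (26.3%), beside 15.4% and 14.5% of all genes tested. The median was 0.03, and -0.04 under median-of-ratios scaling. In the fit of the 4 libraries alone 2 were higher and 2 lower. The lower count also fell when any 1 library was left out. Dusp1, a phosphatase that switches p38 off, had 21 and 18 against 11 and 9 (log2 -0.90, and an adjusted p of 0.0582 in the fit of the 4 libraries alone), and Hspb1, a heat shock protein phosphorylated downstream of p38, had 341 and 306 against 444 and 451 (log2 0.47). Of 11 AP-1 genes 6 were lower, in the fit of the 4 libraries alone 1, and without control 1, 3. Junb had 62 and 76 against 46 and 37 (0.102 in that fit), and Jund went the other way with 242 and 214 against 288 and 267. Fosl1 had 26 and 32 against 11 and 11, and an opposite-strand gene covers 57.2% of its exon bases. The ERK feedback genes, which report on ERK activity, were lower in 9 of 14 and higher in none (5 lower in that fit). Dusp6 had 72 and 78 against 48 and 46 (log2 -0.66), Phlda1 85 and 83 against 50 and 53 (log2 -0.70), Spry1 12 and 13 against 7 and 7, and Egr1 17 and 18 against 9 and 8. Egr1 was not called without control 2 (0.0703) or pre-p38i 2 (0.0785).

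Interferon-inducible genes rose in part. They carry an interferon-stimulated response element with a core of GAAA and a further GAAA after 2 bases, to which IRF factors bind. The promoters of Tgtp2 (chr11:49064163-49064462, minus strand) and Igtp (chr11:58199306-58199605, plus strand), GTPases induced by interferon-γ, are shown because these were the largest rises of the list. Capitals mark the core on either strand.
Tgtp2: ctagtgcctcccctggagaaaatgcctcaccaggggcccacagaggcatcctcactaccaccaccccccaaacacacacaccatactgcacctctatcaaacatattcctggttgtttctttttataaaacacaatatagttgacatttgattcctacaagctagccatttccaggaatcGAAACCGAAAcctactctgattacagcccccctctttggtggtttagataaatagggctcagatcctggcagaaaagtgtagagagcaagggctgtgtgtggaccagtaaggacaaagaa
Igtp: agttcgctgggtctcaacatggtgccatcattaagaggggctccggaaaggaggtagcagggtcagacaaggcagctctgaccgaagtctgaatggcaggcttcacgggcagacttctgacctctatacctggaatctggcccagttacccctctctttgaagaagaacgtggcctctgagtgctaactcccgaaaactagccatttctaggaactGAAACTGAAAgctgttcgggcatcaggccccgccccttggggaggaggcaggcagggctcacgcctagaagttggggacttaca
The core was in 18 of the 37 promoters (48.6%) of the 31 list genes matched, in 3.44% of all promoters and in 3.05% of those of tested genes. It was in 5 of the 8 higher genes that matched.

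Of 41 interferon response genes tested, 11 were higher (26.8%) and 1 lower (2.44%), beside 15.4% and 14.5% of all genes tested. The median was 0.16. Igtp had 96 and 84 in control and 187 and 217 in pre-p38i (log2 1.16, SE 0.23, adjusted p = 6.23e-04). Tgtp2 had 58 and 51 against 148 and 169 (log2 1.52, adjusted p = 7.89e-04), but it is 99.8% identical over 2811 bases to Tgtp1, so its value is uncertain. The pre-p38i libraries were above the control libraries in both genes. The signal transducer Stat2 (79 and 93 against 121 and 125, log2 0.52) was higher, as was Samhd1, a restriction factor (64 and 72 against 101 and 105, log2 0.59), and Iigp1, a GTPase, had 21 and 19 against 32 and 32. Ifit1 had 61 and 70 against 44 and 45. No gene of the list was called lower with a pseudocount of 0.1, with no filter or with the replicate number as a block. None was lower in the fit of the 4 libraries alone. With a pseudocount of 0.1 the adjusted p was 0.175 for Igtp, 0.0987 for Tgtp2 and 0.0645 for Iigp1, and 5 genes were higher. Iigp1 was not called without control 1 (0.0563), control 2 (0.128), pre-p38i 1 (0.0857) or pre-p38i 2 (0.0863), and the number higher was 4, 6, 7 and 5 without them in that order.

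Antigen presentation genes, many of them induced by interferon, were higher in 10 of 15, with a median of 0.45. Psmb9, an immunoproteasome subunit, had 50 and 38 against 99 and 107 (log2 1.22, adjusted p = 3.24e-04), and its neighbour Tap1, a peptide transporter, had 101 and 94 against 164 and 166 (log2 0.75). Nlrc5, the activator of MHC class I genes, had 8 and 5 against 18 and 17. The class I gene H2-K1 had 1476 and 1338 against 1724 and 1738 (log2 0.30), and Psme1 had 179 and 189 against 267 and 274. H2-T23 had 69 and 80 against 109 and 110. The class I light chain B2m went the other way, with 4911 and 4933 against 4506 and 4453 (log2 -0.14). Nlrc5 was not called without control 2 (0.137), pre-p38i 1 (0.0693) or pre-p38i 2 (0.055), nor H2-T23 without control 1 (0.138), pre-p38i 1 (0.069) or pre-p38i 2 (0.0765), nor B2m without control 1 (0.0806), control 2 (0.101), pre-p38i 1 (0.0688) or pre-p38i 2 (0.109), or under quantile normalisation (0.183). The number higher was 6 without control 2 or pre-p38i 2, 6 with a pseudocount of 0.1 and 5 in the fit of the 4 libraries alone, without Nlrc5 (0.0711) and H2-T23 (0.0584). With a pseudocount of 0.1 Nlrc5 had an adjusted p of 0.389 and H2-T23 of 0.0619.

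The difference between pre-p38i and control was already there on day 5, in libraries that are not shared with day 7. Of 1893 genes higher in pre-p38i on day 5 (14.3% of those tested), 1138 (60.1%) were higher on day 7 and 13 lower, and of 1494 lower on day 5 (11.3%), 1118 (74.8%) were lower on day 7 and 6 higher. Of the day 7 calls, 1677 were not called on day 5. Across 13230 genes the log2 fold changes of the days had a Pearson r of 0.663, a description, since genes are not independent. The interaction, the difference on day 7 minus that on day 5, was called in 238 genes (1.8%), in 49 upwards (0.37%) and in 189 downwards (1.43%). Of these, 126 were called on both days in the same direction, 69 on day 7 only, 24 on day 5 only and 19 on both days in opposite directions. Without control 1, control 2 and pre-p38i 2 the number was 157, 120 and 142, and in a fit of the day 5 and day 7 groups alone it was 52.

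**Figure D4:**
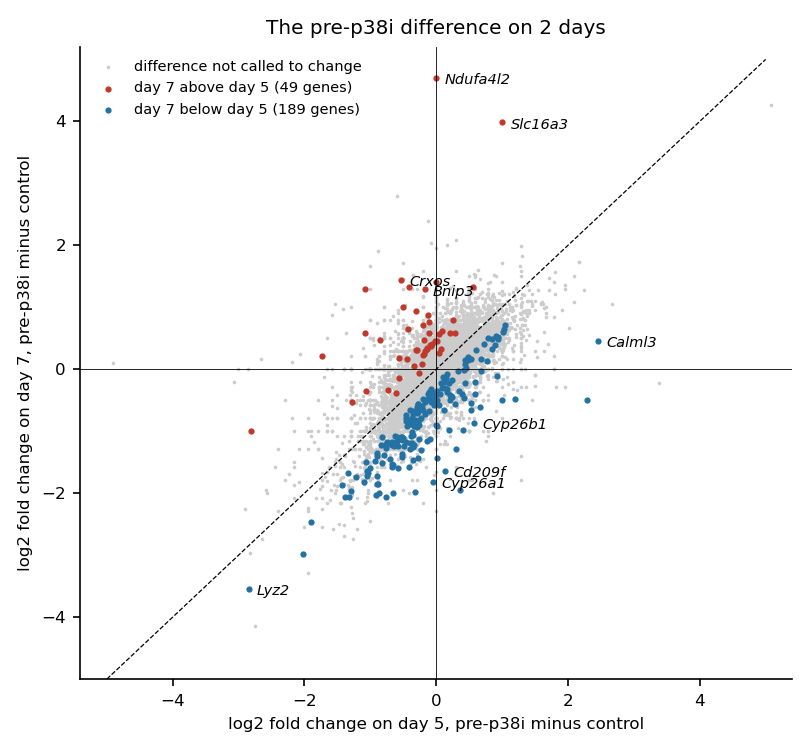
Log2 fold change of pre-p38i minus control on day 7 (vertical axis) against day 5 (horizontal axis), 1 point per gene, with the dashed line at equal differences. Red marks the 49 genes whose signed difference was called higher on day 7 and blue the 189 called lower, deeper falls included, with Ndufa4l2 and Slc16a3 far above the line.

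The glycolysis and hypoxia list, which does not hold Ndufa4l2, gave 7 of the 49 upward changes. Ndufa4l2 was listed at 0 in all 4 day 5 libraries, and Slc16a3 had 0 and 0 in control and 1 and 1 in pre-p38i on day 5. The interactions were 4.70 (SE 0.65, adjusted p = 7.84e-04) and 2.98 (adjusted p = 0.0029) on the log2 scale. Bnip3 had 21 and 19 against 14 and 22 on day 5, where the groups overlapped, and its interaction was 1.46 (adjusted p = 0.00738). Ldha had 448 and 428 against 515 and 498 on day 5 and an interaction of 0.37 (adjusted p = 0.00147). With a pseudocount of 0.1 the interaction was not called for Ndufa4l2 (adjusted p = 0.108) or Slc16a3 (0.749). In a fit of the day 5 and day 7 groups alone it was not called for Ndufa4l2 (0.0507), Bnip3 (0.154) or Ldha (0.103). Of the list, that fit also did not call Tpi1 (0.0734), Pfkl (0.13) or Pkm (0.151). Pkm was not called under quantile normalisation either (0.359). Crxos, an embryonic homeobox gene with near-identical copies, had 4 and 4 against 2 and 3 on day 5 and 5 and 4 against 10 and 19 on day 7 (interaction 1.97, adjusted p = 0.0108, and 0.0585 without control 2, 0.0717 without pre-p38i 2 and 0.242 with a pseudocount of 0.1).

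Retinoic acid is degraded by the CYP26 enzymes, and their genes were among the downward changes. Cyp26a1 had 27 and 21 in control and 24 and 22 in pre-p38i on day 5, and 29 and 25 against 6 and 8 on day 7 (interaction -1.77, adjusted p = 0.00697, and 0.41 with a pseudocount of 0.1). Cyp26b1 had 27 and 33 against 49 and 41 on day 5 and 37 and 27 against 19 and 15 on day 7 (interaction -1.44, adjusted p = 0.0408). The order of the groups was thus opposite on the days for Cyp26b1, whose interaction was not called without control 1 (0.19), control 2 (0.0521), pre-p38i 1 (0.0509) or pre-p38i 2 (0.152), with no filter (0.0538), with a pseudocount of 0.1 (0.0591) or with the replicate number as a block (0.0519). Cd209f, a C-type lectin with a near-identical copy in Cd209g, had 10 and 8 against 11 and 9 on day 5 and 46 and 39 against 11 and 15 on day 7 (interaction -1.78, adjusted p = 0.0126). Calml3, a calmodulin-like gene of epithelia, had 2 and 1 against 12 and 13 on day 5 and 7 and 7 against 10 and 10 on day 7 (interaction -2.00, adjusted p = 0.04). Cd209f was not called without control 1 (0.0713) or pre-p38i 1 (0.0621), and Calml3 not without control 1 (0.119), control 2 (0.115), pre-p38i 1 (0.0973) or pre-p38i 2 (0.109). With a pseudocount of 0.1 the adjusted p was 0.521 for Cd209f and 0.493 for Calml3.

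The falls in matrix and TGF-β genes deepened in part from day 5 to day 7. Of the called interactions, 6 of the TGF-β list, 4 of the matrix glycoproteins, 4 of the contractile genes and 3 each of the collagens and of the metalloproteinase list were downward. Grem1 had 171 and 193 against 44 and 44 on day 5 (interaction -0.96, adjusted p = 3.07e-07), and Timp3 had 452 and 474 against 281 and 285 (interaction -0.74, adjusted p = 3.07e-07). Fn1 was the exception, with a log2 difference of -0.73 on day 5 and -0.33 on day 7 (adjusted p = 0.00693). Of the mitotic genes, 3 had a called downward interaction, among them Ccna2, cyclin A2, at 0.92 on day 5 and 0.52 on day 7 (adjusted p = 0.00359). The ERK feedback gene Dusp6 had 76 and 76 against 79 and 86 on day 5 (interaction -0.78, adjusted p = 0.00151). Of the genes called in opposite directions, named after their values were seen, Aif1l, an actin-bundling protein, had 41 and 49 against 63 and 67 on day 5 and 78 and 80 against 49 and 50 on day 7 (interaction -1.19, adjusted p = 2.29e-05). Smox, spermine oxidase, had 19 and 19 against 16 and 12 on day 5 and 14 and 14 against 21 and 24 on day 7. In the fit of the day 5 and day 7 groups alone the interaction was not called for Fn1 (0.1), Ccna2 (0.0507) or Smox (0.112). Many of the downward matrix and TGF-β interactions were also lost in that fit. Among them were Ccn2 (0.1), Ccn1 (0.0713), Spp1 (0.208), Acta2 (0.159), Lox (0.221) and Timp2 (0.178).

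**Figure D5:**
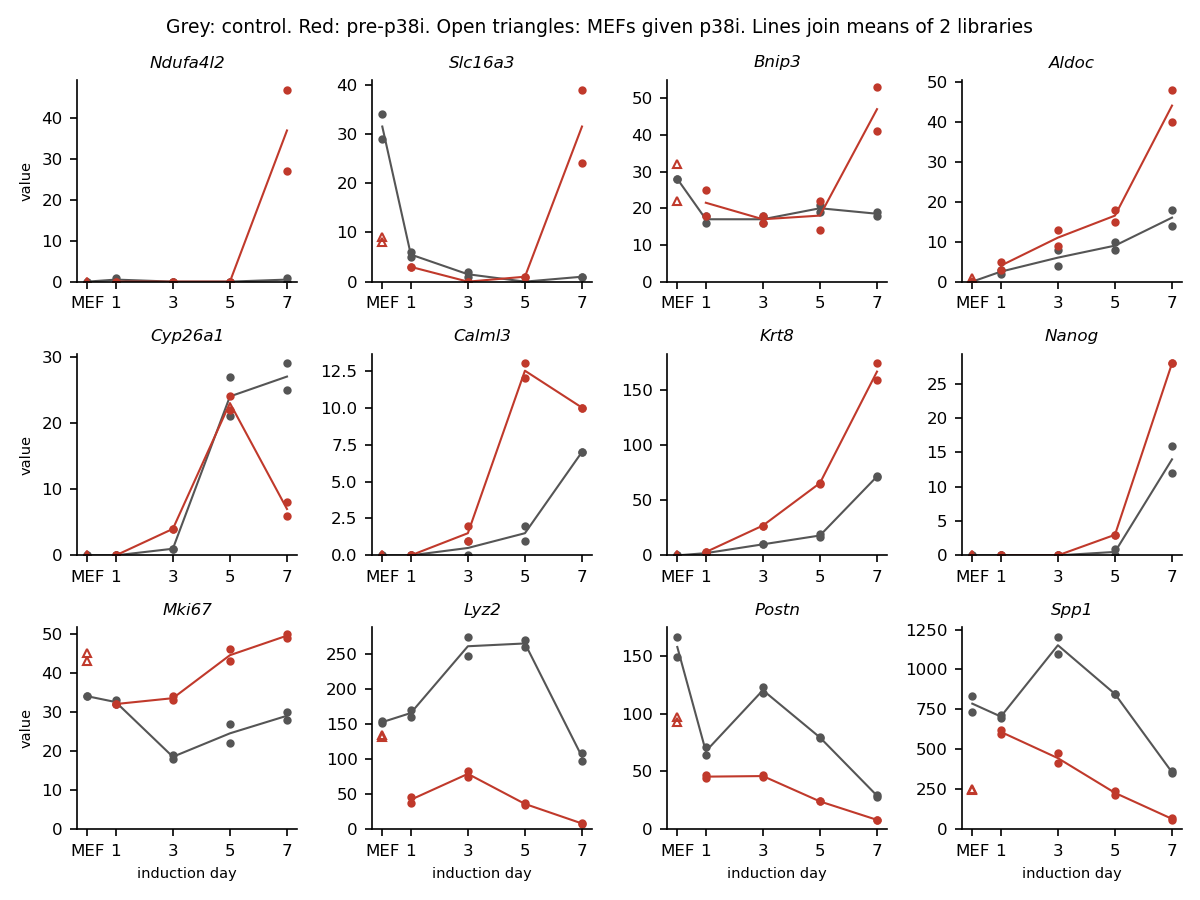
Values (vertical axes) of 12 genes in MEFs and on days 1, 3, 5 and 7 (horizontal axes) in control (grey) and pre-p38i (red), with points for libraries, lines through the means of 2 libraries and open triangles for MEFs given p38i. On day 7 pre-p38i lies above control in Ndufa4l2, Slc16a3 and Bnip3, and in Krt8, Lyz2 and Postn the groups lie apart on day 5 as well. Slc16a3 starts higher in control MEFs (29 and 34) than in MEFs given p38i (8 and 9).

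The inhibitor's effect on MEFs before induction was compared with the day 7 difference, again without shared libraries. Over all genes tested, 15.4% were called higher and 14.5% lower in pre-p38i on day 7. Of 1287 genes raised by p38i in MEFs (9.73% of those tested), 329 (25.6%) were higher and 280 (21.8%) lower in pre-p38i on day 7, with a median of 0.05. Of 1078 lowered in MEFs (8.15%), 431 (40%) were lower and 123 (11.4%) higher, with a median of -0.16. Of the 1163 genes called in both, 760 (65.3%) went the same way and 403 did not, and the Pearson r over all genes was 0.145. In a fit of each pair of groups alone the counts of 329 and 431 were 63 and 118. The balance among the raised genes turned with the scaling, with 201 higher and 318 lower under median-of-ratios scaling and 257 higher and 270 lower under quantile normalisation, and it was 245 and 246 without pre-p38i 1. The genes named here were chosen after their values were seen. Axin2, a feedback target of Wnt signalling, had 0 and 0 in control MEFs, 1 and 1 in MEFs with p38i, and 24 and 27 against 52 and 50 on day 7 (log2 0.97, adjusted p = 4.12e-04). Plekhg5 had 13 and 13 against 24 and 24 on day 7. Nkd1, another Wnt feedback gene, had 54 and 48 against 108 and 110 on day 7 (adjusted p = 0.0239), but was not called without control 1 (0.0667), control 2 (0.122), pre-p38i 1 (0.0873) or pre-p38i 2 (0.0962), or with a pseudocount of 0.1 (0.493). Abcb1a, a drug efflux pump, had 35 and 32 against 8 and 7 on day 7 (log2 -2.02) and 2 and 2 in control MEFs, and was listed at 0 in MEFs with p38i. The prolactin-family genes Prl2c2 (103 and 114 against 24 and 13) and Prl2c3 (43 and 43 against 11 and 8), 99.5% identical over 842 bases, fell on day 7 and were near 0 in MEFs with p38i.

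The control course itself gave a further reference, with genes that rose or fell by 1 or more on the log2 scale from MEFs to control day 5 (31.6% of those tested). Of 1046 that fell, 343 (32.8%) were lower in pre-p38i on day 7 and 117 (11.2%) higher, with a median of -0.16. Over all genes tested these shares were 14.5% and 15.4%. Of 3136 that rose, 352 (11.2%) were higher and 651 (20.8%) lower, with a median of -0.01. The share called higher among the risen genes was below the 15.4% over all genes. The count of 352 was 234 with a pseudocount of 0.1, 211 under quantile normalisation and 210 under median-of-ratios scaling. Over all genes tested the 2034 higher calls also fell in these settings, to 1804, 1905 and 1296. Both counts also fell when any 1 library was left out.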

How the data were processed

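RNA-seq libraries were compared by limma (3.58.1) in R (4.3.3). Per the labels' processing notes the authors used bcl2fastq, Bowtie2 (2.2.5) and RSEM (1.3.0) with mm10. The deposited values, treated here as a score, are whole numbers summing to 991287 to 992537 per library, which matches TPM rounded down, an inference from the values. They are not counts, so no count test was run, and depth and its precision are unknown. Labels and methods differ on RNA extraction, kit and medium, and strand of counting is not given in the sources used here. All 28 libraries entered 1 model of 14 groups on log2(value + 1) with an intensity trend, without a block. Tests were two-sided, for 13230 of 50600 genes whose mean reached 1, with Benjamini-Hochberg adjustment and calls under 0.05. Gene IDs were matched to GENCODE M21 (99.6%), whose coordinates are given.

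Named genes were those the study names, the 10 largest rises and falls with a group mean of at least 10, no overlap and no clone name, up to 5 called members of each of 35 lists by size, and the 4 largest interactions each way, under the same conditions. Other well-known members were named after their values were seen. The members and lists were chosen with earlier results of these data known. Sequences within 200 bases or more at 95% identity (BLAST 2.17.0) were found for 51 of 202 genes searched, among them Ccnb1, Ccnd3, Hspb1, Krt8, Loxl2, Timp3 and Uhrf1, whose values are uncertain. Promoters came from RefSeq. On simulated day 7 data, 65.7%, 94% and 98.5% of genes changed by 0.5, 1 and 2 on the log2 scale were called, and 11 of 13030 unchanged genes. The noise was normal, the changed genes had a mean of at least 10, and fewer were changed than were called here. Genes with lower means were not changed, so these rates do not cover them. Some results are not reported here. Alternatives are in the closing section.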

Additional observations from a re-analysis of the deposited data

Results flagged for a closer look

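The difference between pre-p38i and control was tested for a change from day 5 to day 7 by limma, and the signed log2 difference was higher on day 7 in 49 genes and lower in 189, among them falls that deepened. Upwards, the 4 largest changes under the rule for named genes were 4.70 for Ndufa4l2, 2.98 for Slc16a3, 1.97 for Crxos and 1.46 for Bnip3. Downwards they were -2.00 for Calml3, -1.78 for Cd209f, -1.77 for Cyp26a1 and -1.44 for Cyp26b1. The fit of the day 5 and day 7 groups alone called the change in Slc16a3 but not in Ndufa4l2 (adjusted p = 0.0507), Crxos (0.159), Bnip3 (0.154), Calml3 (0.0714), Cd209f (0.0834), Cyp26a1 (0.0724) or Cyp26b1 (0.13). With 2 libraries per group no group was large enough to look for a library far from the others.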

How the results depend on the processing

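The 3952 day 7 calls numbered 2285 in a fit of the 4 libraries alone, 1858 of them shared, and 2640 to 2866 without 1 library. The 635 calls of at least 1 on the log2 scale were 391 with a minimum mean of 5 (67 higher, 324 lower), 871 with no filter (309 and 562) and 618 with a pseudocount of 0.1 (84 and 534), from 145 higher and 490 lower, and 96 were higher under median-of-ratios scaling. The 238 interactions were 389 with no filter, 52 in a fit of the groups compared alone, and 120 to 212 without 1 library. Genes raised by p38i in MEFs and higher on day 7 were 329, and 63 in the fit of the groups alone and 201 under median-of-ratios scaling, where 318 were lower (280 before). Those lowered and lower were 431, and 118 in the fit of the groups alone. Genes that fell from MEFs to control day 5 and were lower were 343, and 188 in that fit. Those that rose and were higher were 352, and 234 with a pseudocount of 0.1, 211 under quantile normalisation, 210 under median-of-ratios scaling and 182 to 219 without 1 library. Fewer libraries entered the smaller fits, and for the other settings the cause was not tested. No named gene that was called changed direction in any setting, but the balance of counts did. Some genes that were not called, such as Klf4 (-0.12 to 0.08) and Trp53 (-0.07 to 0.06), changed sign between settings. Of 187 called genes with alternatives, 96 were called in each setting and 64 were lost in the fit of the 4 libraries alone. Higher calls were 51.5%, and 34.8% under median-of-ratios scaling, where the medians of the p38 and ATF4 lists changed sign. Lower calls also outnumbered higher ones without any 1 library (1223 to 1376 higher, 1417 to 1609 lower), under quantile normalisation (1905 and 2202) and with a pseudocount of 0.1 (1804 and 1855).

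With the replicate number as a block, 3722 genes were called on day 7, 3583 of them shared, and 172 interactions. Deviations of same-numbered day 7 libraries from their group means had a correlation of -0.0118, and -0.0159 to 0.0513 over all pairs of groups. No pairing by number showed over all genes, and pairing in a part of the genes was not tested. Values are whole numbers, so genes near 1 are measured coarsely, and no interval for counting error could be given.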

Other observations

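Genes of cholesterol and fatty acid synthesis, which SREBP factors drive, were higher in 12 of 31 and lower in none, with a median of 0.18. Hmgcs1, an early enzyme of the pathway, had 133 and 129 in control and 207 and 160 in pre-p38i (log2 0.47). Insig1, which holds back SREBP, had 174 and 157 against 241 and 196, and Scd2, a desaturase, had 893 and 902 against 1167 and 1086. The first of the pre-p38i libraries was the higher one in each of these genes. The number higher was 7 without pre-p38i 1, 7 under median-of-ratios scaling and 4 in the fit of the 4 libraries alone, which did not call Hmgcs1 (adjusted p = 0.156) or Insig1 (0.171).

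Imprinted genes moved both ways, 7 of 22 higher (31.8%) and 9 lower (40.9%), beside 15.4% and 14.5% of all genes tested. Those of the Dlk1-Dio3 region were among the rises, namely Dio3, which inactivates thyroid hormone (42 and 47 against 118 and 120, log2 1.40, adjusted p = 2.35e-04, and 0.115 with a pseudocount of 0.1), the noncoding Meg3 (16 and 18 against 39 and 44, log2 1.24) and Rian (120 and 125 against 185 and 174, log2 0.55). Peg10 (21 and 21 against 50 and 44, log2 1.12) and Nnat (87 and 81 against 173 and 176, log2 1.05) also rose. Ndn (29 and 32 against 13 and 16, log2 -1.03), the growth factor Igf2 (156 and 163 against 112 and 103, log2 -0.57) and Gnas (1030 and 1058 against 760 and 743, log2 -0.47) fell. Of 10 DNA methylation genes 5 were higher and 1 lower. Uhrf1, which brings Dnmt1 to replicating DNA, had 95 and 98 against 153 and 150 (log2 0.65), and Dnmt1 had 91 and 87 against 122 and 119 (log2 0.43). Tet2 had 21 and 18 against 38 and 31, and was not called without control 2 (0.0543) or pre-p38i 1 (0.0618) or in the fit of the 4 libraries alone (0.0727). Without these libraries 3 and 2 of the list were higher.

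Markers of other cell types were low or mixed. Map2, a neuronal microtubule protein, had 11 and 11 against 29 and 29 (log2 1.32, adjusted p = 1.32e-07). Among 17 epidermal genes 2 were higher (11.8%) and 4 lower (23.5%), beside 15.4% and 14.5% of all genes tested. Lgals7 had 124 and 110 against 230 and 241, and was not called without control 2 (0.0774) or pre-p38i 2 (0.061), and the keratin Krt13 had 27 and 29 against 61 and 57 (0.387 with a pseudocount of 0.1). Crct1, of the cornified envelope, had 15 and 17 against 3 and 1 (log2 -2.58, and 0.0597 in the fit of the 4 libraries alone). Tfap2c, a trophoblast and germ cell factor, had 4 and 4 against 8 and 11, and was not called without pre-p38i 2 (0.0905), with a pseudocount of 0.1 (0.343) or in the fit of the 4 libraries alone (0.0603). The connexin Gja1 had 314 and 318 against 406 and 388 (log2 0.33).

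Of 20 genes of the ATF4 stress response, 3 were higher (15%) and 5 lower (25%), beside 15.4% and 14.5% of all genes tested. Nupr1, a stress-induced chromatin protein, had 222 and 239 against 93 and 100 (log2 -1.25, adjusted p = 1.04e-08), and Ddit3 (CHOP) had 36 and 36 against 21 and 20 (log2 -0.78). Atf4 itself had 194 and 197 against 237 and 223 (log2 0.23).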
